A study of Mus musculus with 25 samples.

Results

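The Ly6 surface antigen family comprises small proteins that share the Ly-6/uPAR fold and are, for most members, held on the outer cell membrane by a lipid anchor. The members described here were 6 genes picked by symbol: Ly6a, Ly6c1, Ly6c2, Ly6e, Ly6g and Ly6i. Of these 6, 5 were measured among the 19762 genes of each count table, and Ly6g, a neutrophil surface antigen, was not analysed here. The RefSeq gene table for GRCm38.p6 places the genes on mouse chromosome 15 in the order Ly6e, Ly6i, Ly6a, Ly6c1, Ly6c2 and Ly6g. They were chosen with results of these tables already known, and the record of the choice does not say which values were used, so none of the tests below is independent of it.

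Mouse immunologists know these proteins best as surface markers. Ly6C, encoded by Ly6c1 and Ly6c2, marks inflammatory monocytes in blood and is also carried by neutrophils, some T cells and endothelium. Ly6a encodes Sca-1, a marker of blood stem and progenitor cells and of endothelium that interferon induces in lymphocytes and other cells. Ly6e is found on many cell types and is likewise interferon-inducible, and Ly6i is a less studied relative described in macrophages.

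All 25 samples came from 5XFAD mice, which carry human transgenes with familial Alzheimer's disease mutations under the neuronal Thy1 promoter, and the series asks how blocking the inhibitory T cell receptor PD-1 acts in them. Whole choroid plexus, which secretes cerebrospinal fluid into the ventricles, was taken from 5 mice given anti-PD-1, 5 given an IgG control and 4 left untreated. CD11b+ myeloid cells were sorted from the brain after anti-PD-1 into a CD45-high gate, which the series calls monocyte-derived macrophages (2 libraries at D14 and 3 at D7), and a CD45-low gate, which it calls microglia (3 libraries at D14 and 3 at D7). No wild-type mice and no sorted cells without anti-PD-1 were among the samples, and the labels give no age. Neither the starting point of D7 and D14 nor the animal behind each sorted library is given, and the titles share numbers between the gates without explanation, so p-values there reflect spread among libraries that may be technical repeats.

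A choroid plexus library held 931461 to 1840072 counts and a sorted library 343439 to 974777. Levels are CPM, counts scaled to a common library size with TMM factors, and the 2 tissues were normalized separately. A count of 0 allows up to 3 counts, or 2.78 to 9.95 CPM in a sorted library and 1.68 to 3.16 CPM in a choroid plexus library. These limits cover counting error only. The summed level of 10 microglia markers was 1052 to 4910 CPM in the CD45-high gate and 9652 to 15089 CPM in the CD45-low gate. That of 10 neutrophil markers was 12375 to 22244 CPM in the CD45-high gate and 345 to 4723 CPM in the CD45-low gate, so the gate called macrophages also held neutrophil transcripts.

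Ly6c1 and Ly6c2 are close copies, and much of what follows turns on telling them apart. Their promoters, from 250 bases before to 50 bases after the RefSeq transcription start on GRCm38.p6, were compared. They are shown because both genes were higher in the CD45-high gate while their balance was opposite in myeloid cells and in choroid plexus. Where a gene had more than 1 promoter entry, the pair with the best alignment score was used. Over 286 aligned positions 214 were identical (74.8%), 48 were substituted and 24 lay opposite a gap. Capitals mark bases that differ from the other gene or have no counterpart in it inside the aligned stretch. The Ly6c1 window is chr15:75048788-75049087 and the Ly6c2 window chr15:75111922-75112221, both on the minus strand and written 5′ to 3′.
Ly6c1: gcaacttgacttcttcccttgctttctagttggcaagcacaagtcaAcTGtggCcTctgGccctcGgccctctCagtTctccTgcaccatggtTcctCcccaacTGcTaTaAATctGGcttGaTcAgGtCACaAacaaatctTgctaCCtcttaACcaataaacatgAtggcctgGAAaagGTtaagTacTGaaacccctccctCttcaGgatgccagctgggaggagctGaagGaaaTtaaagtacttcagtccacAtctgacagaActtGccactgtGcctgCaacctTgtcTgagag
Ly6c2: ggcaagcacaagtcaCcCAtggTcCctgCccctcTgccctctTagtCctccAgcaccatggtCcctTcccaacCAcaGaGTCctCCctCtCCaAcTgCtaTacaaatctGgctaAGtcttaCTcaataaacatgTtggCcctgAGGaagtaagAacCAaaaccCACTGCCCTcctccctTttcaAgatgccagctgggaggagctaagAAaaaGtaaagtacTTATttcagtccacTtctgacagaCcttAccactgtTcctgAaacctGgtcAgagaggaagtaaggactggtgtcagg
The series read transcripts near their 3′ end. In the last 300 bases of the GENCODE transcripts, 29.9% of the 50-base runs of Ly6c2 also occur in Ly6c1. For Ly6c1 28.7% also occur in Ly6c2, while Ly6a, Ly6e and Ly6i share 0 of theirs with any other gene. The Ly6c1 value pools 753 runs of 3 transcripts, against 251 runs of 1 Ly6c2 transcript, so the 2 percentages are not alike. The share for the Ly6c1 transcript that was mostly read was not computed. Reads from such shared runs cannot be assigned to 1 copy, so the split between Ly6c1 and Ly6c2 is uncertain.

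In the sorted cells the family fell into 3 patterns. Ly6c1, Ly6c2 and Ly6i were higher in the CD45-high gate, Ly6c1 and Ly6c2 by far and Ly6i from few counts. Ly6e was abundant in both gates and somewhat higher in CD45-high. Ly6a was low everywhere except at D14 in the CD45-high gate. All 5 genes passed the expression filter, Ly6i through the CD45-high gate alone. The gates are compared as a description, without a test. Among 9058 tested genes 46.5% had a log2 fold change above 0 between the gates, 18.7% one above 1 and 4.53% one above 4. In 18.9% every CD45-high library lay above every CD45-low library. In bulk samples fewer cells of a type and less RNA per cell cannot be told apart.

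**Figure D1:**
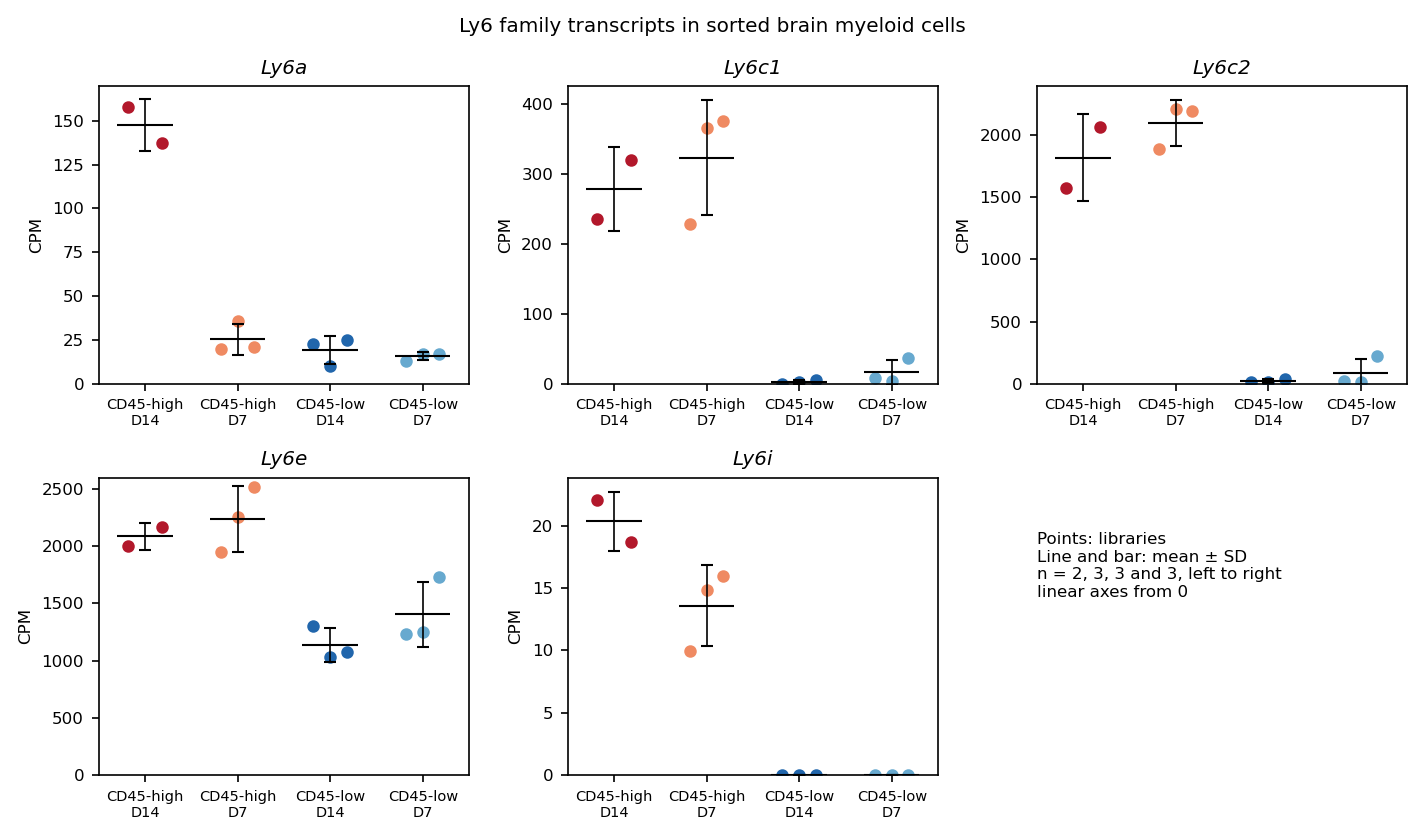
CPM (linear vertical axes from 0) of 5 Ly6 family genes in 11 sorted libraries, by gate and D; points are libraries, lines and bars the mean ± SD. Ly6a stands at 137 and 158 CPM in the CD45-high gate at D14 and at no more than 35.7 CPM in the other 9 libraries, while Ly6c1, Ly6c2 and Ly6i separate the gates at both D7 and D14.

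Ly6c2, the copy that encodes most Ly6C of inflammatory monocytes, was the member with the widest range. At D14 it was at 1573 and 2067 CPM in the CD45-high gate and at 13.7, 10.2 and 35.4 CPM in the CD45-low gate. At D7 it was at 1890, 2213 and 2198 CPM in the CD45-high gate and at 22.4, 14.04 and 218 CPM in the CD45-low gate. The gates did not overlap at either time, and a single CD45-low library stood far above its group. The log2 fold change between the gates was 6.49 ± 0.709 (SE) at D14 and 4.78 ± 0.621 at D7, and at D7 it was 6.84 without that library, CD45-low D7 replicate 3. The same library had the highest summed neutrophil level of the CD45-low gate, 4723 CPM against 345 to 1154 CPM in the other 5, and the highest monocyte level, 1483 CPM against 124 to 348 CPM. The part of such cells in its Ly6c2 was not tested.

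Ly6c1 followed the same pattern at a lower level. Ly6c1 was at 235 and 320 CPM at D14 and at 229, 365 and 375 CPM at D7 in the CD45-high gate. In the CD45-low gate it was at 0, 1.85 and 5.59 CPM at D14, with 8 counts in all, and at 7.48, 3.01 and 37.0 CPM at D7. The highest CD45-low value again came from D7 replicate 3. The fitted log2 fold change between the gates was 4.62 ± 0.499 (SE) at D7, and 5.92 without that library. At D14 the mean of the CD45-low gate, 2.48 CPM, lay under the limit that a count of 0 allows in those libraries, 3.10 CPM on average, and the levels are given in place of a fold.

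Ly6i was scarce. It had 12 and 9 counts at D14 and 3, 5 and 7 counts at D7 in the CD45-high gate, and 0 counts in all 6 CD45-low libraries. In CPM this was 20.4 ± 2.36 at D14 (SD, n = 2) and 13.6 ± 3.22 at D7 (n = 3) in the CD45-high gate. Set against 3 counts per CD45-low library, the CD45-high mean was 6.57-fold higher at D14 and 3.47-fold higher at D7. These ratios leave out the counting error of the CD45-high means, which rest on 21 and 15 counts. The authors also deposited a scaled table from which whole reads can be recovered, and there 1 read of Ly6i appeared in CD45-low D7 replicate 3 and 0 in the other 5.

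By the counts, Ly6e was the most abundant member in each of the 11 sorted libraries. On the recovered reads Ly6c2 was above Ly6e in CD45-high D7 replicate 2 (800 against 763 reads) and CD45-high D14 replicate 2 (1070 against 1057). The level of Ly6e by the counts was 2085 ± 121 CPM at D14 (SD, n = 2) and 2238 ± 285 CPM at D7 (n = 3) in the CD45-high gate. In the CD45-low gate it was 1138 ± 146 CPM at D14 and 1403 ± 287 CPM at D7 (n = 3 each). Every CD45-high library, 1946 to 2516 CPM, lay above every CD45-low library, 1035 to 1735 CPM, and the log2 fold change between the gates was 0.87 ± 0.203 (SE) at D14 and 0.68 ± 0.185 at D7.

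Ly6a, the Sca-1 gene, set D14 apart from D7. In the CD45-high gate it was at 158 and 137 CPM at D14 and at 19.9, 35.7 and 20.6 CPM at D7, from 86 and 66 counts and from 6, 12 and 9 counts. In the CD45-low gate it was at 22.4, 10.2 and 25.1 CPM at D14 and at 12.8, 17.0 and 16.7 CPM at D7. Both CD45-high D14 libraries lay above the other 9 libraries, and the other 3 groups lay close together. Between the gates the log2 fold change of Ly6a was 2.94 ± 0.375 (SE) at D14 and 0.70 ± 0.446 at D7.

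The comparison of D14 with D7 was tested within each gate over all 9058 genes, and a gene was called when its adjusted p was under 0.05. In the CD45-high gate Ly6a rose by a log2 fold change of 2.54 ± 0.408 (SE; edgeR quasi-likelihood test, adjusted p = 0.0469), with 148 ± 14.73 CPM at D14 (SD, n = 2) and 25.4 ± 8.90 CPM at D7 (n = 3). It ranked 1 of 9058 by p and was the only gene called, 0.011% of those tested. In 13.7% of tested genes both D14 libraries lay above all 3 D7 libraries, as they did for Ly6a. The call sat at the threshold. Its adjusted p was 0.0555 with RLE size factors, 0.0272 on the recovered reads and 0.00143 with DESeq2. It was 0.413 without D14 replicate 1, 0.0895 without D14 replicate 2, 0.0504 without D7 replicate 2 and 0.0993 without D7 replicate 3 of this gate. Leaving out CD45-low libraries, which enter through shared estimates such as that of the spread, gave 0.0554 without D7 replicate 1 and 0.0651 without D14 replicate 1. The fold change stayed between 2.38 and 2.85 when each of the 11 libraries was left out in turn.

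**Figure D2:**
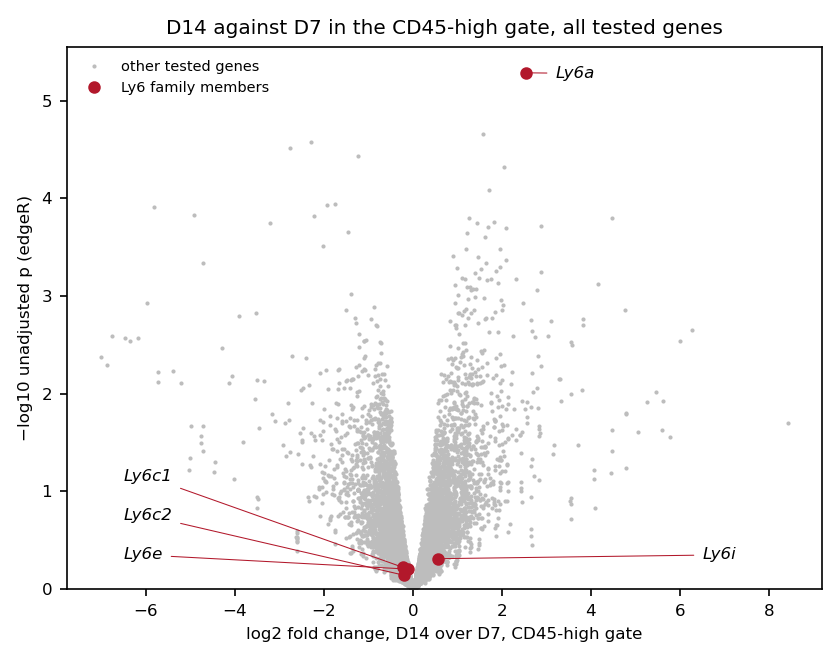
log2 fold change of D14 over D7 in the CD45-high gate (horizontal axis) against −log10 of the unadjusted edgeR p (vertical axis) for 9058 tested genes, with the 5 Ly6 family genes in red. Ly6a lies at a log2 fold change of 2.54 above every other point, and the other 4 members lie between −0.23 and 0.56 near the base of the plot.

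The other 4 members did not pass in that gate. Ly6i had 22.1 and 18.7 CPM at D14 and 9.95, 14.9 and 16.0 CPM at D7, which do not overlap, with a log2 fold change of 0.56 ± 0.790 (SE; edgeR, adjusted p = 0.843). The log2 fold change of Ly6c1 was -0.23 ± 0.423, that of Ly6c2 -0.21 ± 0.570 and that of Ly6e -0.10 ± 0.207, with edgeR adjusted p from 0.890 to 0.935, and the D14 and D7 libraries overlapped for all 3. Over the 5 members the median was -0.10, and over all tested genes it was 0.01.

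In the CD45-low gate 0 of the 5 members were called between D14 and D7, where 9 of 9058 genes (0.0994%) were. Ly6a had a log2 fold change of 0.31 ± 0.400 (SE; edgeR, adjusted p = 0.943) and Ly6e one of -0.30 ± 0.184 (adjusted p = 0.798). For Ly6c2 it was -1.92 ± 0.696 (edgeR, adjusted p = 0.485), and 0.15 without CD45-low D7 replicate 3. For Ly6c1, whose D14 mean lay under the limit of a count of 0, no fold is given (edgeR, adjusted p = 0.498). Ly6i was at 0 counts throughout. A direct test of the difference of D14 over D7 in the CD45-high gate minus that in the CD45-low gate gave 2.24 ± 0.583 for Ly6a (edgeR, adjusted p = 0.626), 1.71 ± 0.894 for Ly6c2 and 0.20 ± 0.276 for Ly6e (adjusted p from 0.821 to 0.943 for these 2 and Ly6c1). That of Ly6c2 was -0.35 without CD45-low D7 replicate 3. In that test edgeR called 0 of 9058 genes (0%), with 542 at an unadjusted p under 0.05. DESeq2, run without the expression filter, called 0 of 13937 genes.

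Interferon is known to induce Ly6a, and the summed level of other interferon-inducible transcripts was highest in the same 2 libraries. That of 12 such genes, among them Igtp, Gbp2, Irf1 and Isg15, was 1630 and 2231 CPM at D14 and 710, 1200 and 1215 CPM at D7 in the CD45-high gate. In the CD45-low gate it was 678 to 853 CPM at D14 and 560 to 670 CPM at D7. Of the 12 genes 11 had a positive log2 fold change of D14 over D7 in the CD45-high gate and 0 were called, with a median of 1.10 beside 0.01 over all tested genes. The exception was Gbp2, at -0.88 ± 0.519 (SE). In the CD45-low gate 10 of the 12 were positive and 0 were called, with a median of 0.48 beside -0.02 over all tested genes. Of the 2 CD45-high D14 libraries the one with more Ly6a had the lower sum. T and NK cell markers, which mark lymphocytes that can carry Sca-1, summed to 137 to 153 CPM at D14 and to 89.2 to 182 CPM at D7 in the CD45-high gate, with Gzma at 0 in both. Other lymphocyte genes, picked after their values were seen, went in both directions, and none of those named here passed the test. Cd8b1, which encodes a chain of the CD8 coreceptor of T cells, was at 31.2 and 39.5 CPM at D14 and at 19.9, 0 and 0 CPM at D7, with a log2 fold change of 2.56 ± 0.980 (SE; edgeR, adjusted p = 0.387). Cd8a, the other chain, was at 42.3 and 72.8 CPM at D14 and at 29.8, 17.8 and 2.29 CPM at D7, with 1.86 ± 0.717 (edgeR, adjusted p = 0.390). The groups do not overlap for either gene, while the D7 libraries with the most Cd8a and the most Ly6a were different ones. Cxcr3 had a log2 fold change of 1.32 ± 0.911 (SE), without overlap, and Il7r one of 1.27 ± 0.872. For Il7r the groups overlapped, at 9.19 and 29.1 CPM at D14 and at 23.2, 2.97 and 0 CPM at D7. Cd7 and Il2rb were lower at D14, with log2 fold changes of -0.64 and -0.50. Neutrophil markers summed to 12375 and 14603 CPM at D14 and to 20177 to 22244 CPM at D7. Genes of eosinophil granule proteins, likewise picked afterwards, were lower at D14 and missed the threshold. Epx was at 18.4 and 35.3 CPM at D14 and at 113, 288 and 146 CPM at D7 (log2 fold change -2.77 ± 0.496, SE; edgeR, adjusted p = 0.0670), and Prg2 was at 29.4 and 83.2 CPM at D14 and at 332, 285 and 204 CPM at D7 (-2.29 ± 0.404; edgeR, adjusted p = 0.0670). The part of any of these in the Ly6a difference was not tested.

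**Figure D3:**
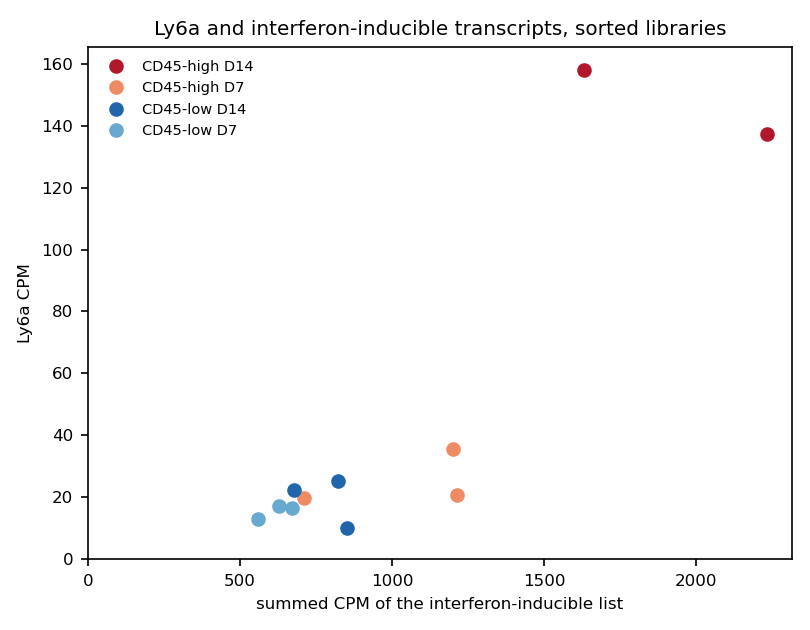
Ly6a CPM (vertical axis) against the summed CPM of 12 interferon-inducible genes (horizontal axis) in the 11 sorted libraries, coloured by gate and D. The 2 CD45-high D14 libraries are the highest in both measures, and CD45-high D7 libraries with sums of 1200 and 1215 CPM keep Ly6a at 35.7 and 20.6 CPM.

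The genes whose levels ran most like each member over the 11 sorted libraries were sought by the root mean square difference of log2 CPM centred on the gene's own mean. Ly6a was nearest to Gata3, a transcription factor of T helper and innate lymphoid cells, at 0.42, to the gap junction gene Gjb2 at 0.51 and to the chloride channel gene Clic4 at 0.54. Ly6c1 and Ly6c2 shared their nearest gene, Gpr97, an adhesion receptor of granulocytes, at 0.35 and 0.37. Pram1 and Ankrd22 came next for Ly6c1 at 0.37 and 0.39, and Trem3 and Cd24a for Ly6c2 at 0.38 and 0.39. Ly6e was nearest to Atp6v0c, a proton pump subunit, at 0.10, Snx20 at 0.12 and the lysosomal gene Psap at 0.13. Ly6i was nearest to Slc6a12 at 0.19, Stk17b at 0.24 and Dck at 0.25. With 0 counts in the CD45-low gate and 3 to 12 per CD45-high library, its log2 CPM depends strongly on the prior count of 2. Its small distances are therefore not to be set against those of the other members. The difference between the gates sets most of these distances, and the points share their libraries.

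Of 29 other genes of the Ly-6/uPAR family, 28 had a row in each table, and in the sorted cells 3 passed the expression filter while 14 had 0 counts. Plaur, which encodes the urokinase receptor that gives the fold its name, was at 499 ± 47.6 CPM at D14 (SD, n = 2) and 590 ± 40.1 CPM at D7 (n = 3) in the CD45-high gate. In the CD45-low gate it was at 29.9 ± 4.85 CPM at D14 and 35.7 ± 23.1 CPM at D7 (n = 3 each). Ly6g5b was at 34.2 ± 1.60 CPM at D14 and 29.5 ± 6.12 CPM at D7 in the CD45-high gate, and at 4.77 ± 6.65 CPM at D14 and 4.11 ± 4.48 CPM at D7 in the CD45-low gate. Lypd6, a modulator of nicotinic receptors and Wnt signalling, went the other way. It had 0 counts in all 5 CD45-high libraries and was at 14.1 ± 4.89 CPM at D14 and 15.5 ± 11.9 CPM at D7 in the CD45-low gate. None of the 3 genes was called by edgeR between D14 and D7 in either gate.

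In the choroid plexus the members ranked differently. Ly6e was again the most abundant, Ly6a and Ly6c1 lay far lower, Ly6c2 was close to the limit of detection with 1 to 10 counts per library, and Ly6i had 0 counts in all 14 libraries. Ly6a, Ly6c1 and Ly6e passed the expression filter. Of the pair Ly6c1 and Ly6c2, Ly6c1 made up 89.1% ± 5.91 of the counts with anti-PD-1 (SD, n = 5), 92.2% ± 4.15 with IgG (n = 5) and 89.9% ± 4.68 in untreated mice (n = 4). In the sorted cells that share was 13.2% ± 0.287 at D14 and 13.2% ± 2.07 at D7 in the CD45-high gate, and 9.67% ± 8.42 at D14 and 19.0% ± 5.39 at D7 in the CD45-low gate. The shares of the 14 choroid plexus libraries, 79.4% to 98.1%, and of the 11 sorted libraries, 0% to 25%, do not overlap. Each is a ratio within a library and does not depend on the scaling between tables, but it does depend on how reads of the shared runs were assigned.

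**Figure D4:**
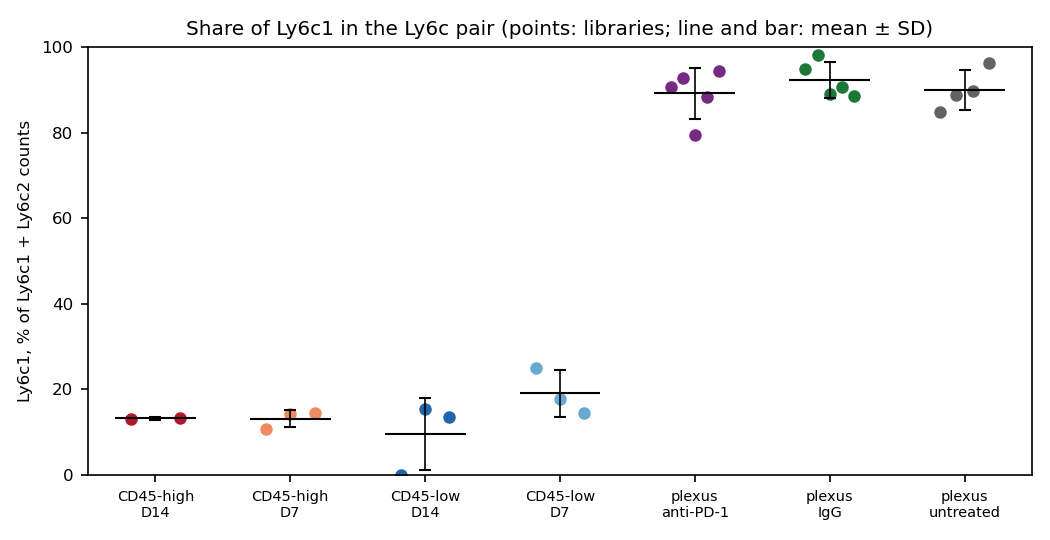
Ly6c1 as a percentage of the Ly6c1 and Ly6c2 counts of each library (vertical axis, 0 to 100) in 4 sorted and 3 choroid plexus groups; points are libraries, lines and bars the mean ± SD. The sorted libraries lie at 0% to 25% and the choroid plexus libraries at 79.4% to 98.1%.

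Rows for single transcripts of the choroid plexus bear on which form was read. For Ly6a and for Ly6e 6 RefSeq transcripts each had identical values, so they were not distinguished. For Ly6c1 2 of 5 transcripts had the same 775 reads over the 14 libraries as the count table, and the other 3, NM_001252056, NM_001252057 and NM_001252058, had 10, 5 and 5 reads.

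Anti-PD-1 was compared with IgG, which asks what the blocking antibody adds to a control antibody, and 0 of the 3 tested members were called. Among 9513 genes edgeR called 0 (0%), with 442 at an unadjusted p under 0.05. DESeq2, run without the expression filter, called 3 of 15100 genes. Ly6a was at 24.4, 37.6, 34.1, 41.9 and 102 CPM with anti-PD-1, at 48.4, 24.2, 51.2, 38.5 and 49.2 CPM with IgG, and at 41.5, 31.4, 44.0 and 20.5 CPM in untreated mice. Anti-PD-1 replicate 5 stood apart from the other 13 libraries, whose highest value was 51.2 CPM. The log2 fold change of Ly6a against IgG was 0.16 ± 0.253 (SE; edgeR, adjusted p = 1.00), and without that library it was -0.25.

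Ly6c1 was high in the same library. It was at 45.0, 34.1, 20.4, 36.0 and 95.3 CPM with anti-PD-1, at 59.0, 49.4, 36.9, 54.8 and 43.0 CPM with IgG, and at 28.3, 38.6, 42.4 and 44.6 CPM in untreated mice. Its log2 fold change of anti-PD-1 against IgG was -0.07 ± 0.260 (SE), and -0.54 without anti-PD-1 replicate 5. In that library the summed level of 10 endothelial markers was 120 CPM, within the 114 to 223 CPM of its group, and that of the 12 interferon-inducible genes was 279 CPM, within 175 to 301 CPM. Endothelial markers summed to 158 to 312 CPM with IgG and to 167 to 203 CPM in untreated mice, and interferon-inducible genes to 147 to 210 CPM with IgG and to 135 to 251 CPM in untreated mice. For anti-PD-1 against IgG, 8 of the 8 interferon-inducible genes tested had a positive log2 fold change and 0 were called, with a median of 0.44 beside 0.00017 over all tested genes. The part of either list in Ly6a and Ly6c1 was not tested.

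Ly6e varied by a similar factor in each group, at 284, 402, 416, 456 and 632 CPM with anti-PD-1, at 303, 255, 480, 498 and 604 CPM with IgG, and at 265, 569, 516 and 294 CPM in untreated mice. The 3 groups overlap almost entirely. Its log2 fold change was 0.06 ± 0.164 (SE) for anti-PD-1 against IgG. Ly6c2, which did not pass the filter, was at 4.58 ± 1.16 CPM with anti-PD-1 (SD, n = 5), 3.99 ± 1.99 CPM with IgG (n = 5) and 4.14 ± 1.57 CPM in untreated mice (n = 4).

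**Figure D5:**
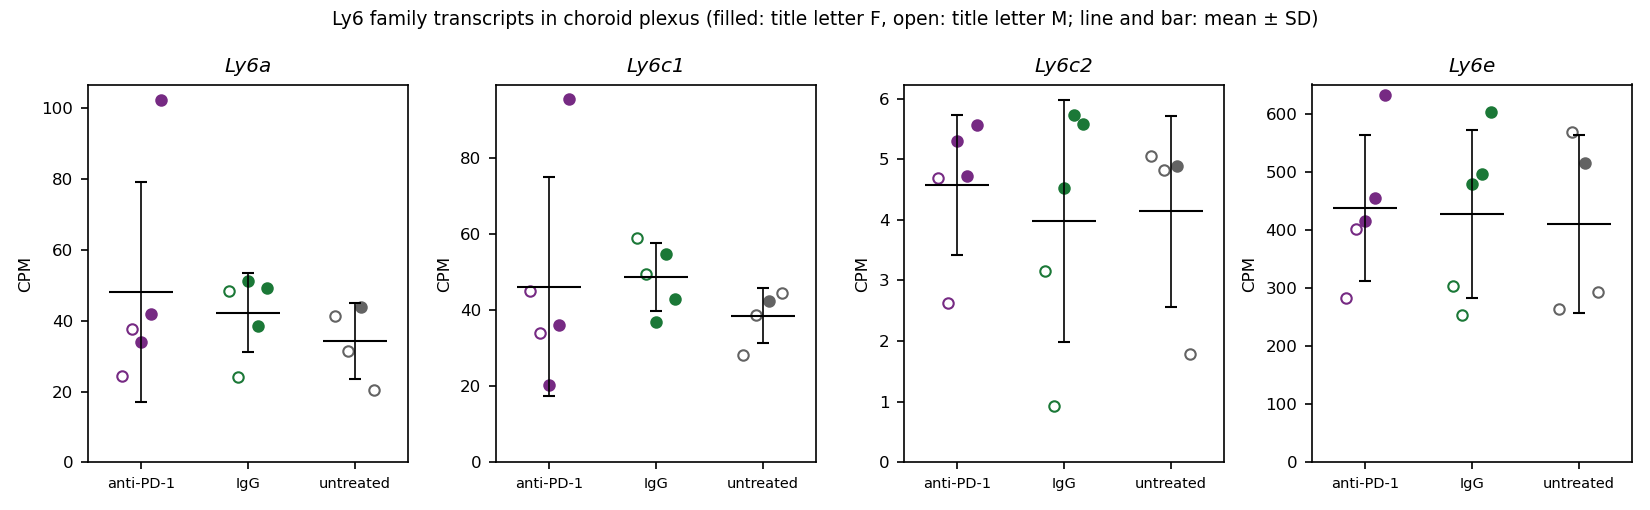
CPM (linear vertical axes from 0) of 4 Ly6 family genes in the 14 choroid plexus libraries by treatment; filled points have the title letter F and open points M, and lines and bars are the mean ± SD. Anti-PD-1 replicate 5 is the highest point for Ly6a, Ly6c1 and Ly6e, and Ly6e is higher in F than in M libraries apart from 1 untreated M library at 569 CPM.

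Against untreated mice, anti-PD-1 gave log2 fold changes of 0.25 ± 0.294 for Ly6a, 0.22 ± 0.300 for Ly6c1 and -0.16 ± 0.182 for Ly6e (SE; edgeR, adjusted p = 0.998 for each). Here edgeR called 0 of 9513 genes (0%), with 368 at an unadjusted p under 0.05, and DESeq2 called 3 of 15100. IgG against untreated gave 0.09 ± 0.296 for Ly6a, 0.29 ± 0.297 for Ly6c1 and -0.22 ± 0.185 for Ly6e (edgeR, adjusted p from 0.995 to 0.998). There edgeR again called 0 genes (0%), with 471 at an unadjusted p under 0.05, and DESeq2 called 1 of 15100. The 3 comparisons share their groups and are not independent of one another. Of the 29 other family genes 3 passed the filter in this tissue and 0 were called. Cd59a, which encodes an inhibitor of complement, was at 454 ± 68.9 CPM with anti-PD-1, 451 ± 122 CPM with IgG and 435 ± 84.9 CPM in untreated mice. Lynx1, a modulator of nicotinic receptors, was at 106 ± 15.3 CPM with anti-PD-1, 94.2 ± 24.0 CPM with IgG and 112 ± 22.8 CPM in untreated mice. Lypd6 was at 12.9 ± 2.64 CPM with anti-PD-1, 12.9 ± 4.67 CPM with IgG and 12.2 ± 2.71 CPM in untreated mice.

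Each choroid plexus title holds the letter M or F and a number, neither of them explained. Within F libraries alone (3 per group) the log2 fold change of anti-PD-1 against IgG was 0.34 for Ly6a, 0.16 for Ly6c1 and -0.07 for Ly6e. Within M libraries alone (2 per group) it was -0.21, -0.45 and 0.30. Anti-PD-1 replicate 5, with the highest Ly6a and Ly6c1, is an F library. The test of F minus M gave 0.55 ± 0.554, 0.61 ± 0.550 and -0.38 ± 0.342 (SE; edgeR, adjusted p = 0.999 for each), with 0 of 9513 genes called and 313 at an unadjusted p under 0.05.

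The letter itself went with Ly6e, in a comparison chosen after the values were seen. Ly6e was at 515 ± 78.0 CPM in F libraries and 339 ± 112 CPM in M libraries (SD, n = 7 each). F libraries ran from 416 to 632 CPM with a median of 498 CPM, and M libraries from 255 to 569 CPM with a median of 294 CPM. With anti-PD-1 the F libraries were at 416 to 632 CPM and the M libraries at 284 and 402 CPM, and with IgG they were at 480 to 604 CPM and at 303 and 255 CPM. In untreated mice the F library was at 516 CPM and the M libraries at 265 to 569 CPM, so only there did the letters overlap. The log2 fold change of 0.66 ± 0.149 (SE) missed the threshold (edgeR, adjusted p = 0.0501), where 24 of 9513 genes (0.252%) were called. The adjusted p was 0.0478 with RLE size factors, 0.0489 on the recovered reads and 0.126 with DESeq2. It passed without untreated replicate 2 (7.93e-04) or anti-PD-1 replicates 2 (0.0459), 3 (0.0341) or 4 (0.0308), and ran from 0.0535 to 0.239 when any of the other 10 libraries was left out. Ly6a had 0.61 ± 0.234 (adjusted p = 0.431) and Ly6c1 0.06 ± 0.236 (adjusted p = 0.981). In the anti-PD-1 and IgG groups every M title ends in 14 and every F title in a lower number, so a difference by letter cannot be told apart from one by number in those groups.

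Over the 14 choroid plexus libraries the genes most like each tested member were sought by Pearson's r of log2 CPM, given as a description. For Ly6e these were Map3k14, a kinase of the NF-κB pathway, at 0.87, Riok2 at 0.87 and Scp2 at 0.86, with Spearman's rho from 0.87 to 0.89 and r from 0.82 to 0.84 without the 2 libraries farthest from the median of Ly6e. For Ly6a they were Shfm1 at 0.86, Bloc1s1 at 0.84 and Med30 at 0.83, with rho from 0.64 to 0.80 and r from 0.62 to 0.73 without 2 libraries. For Ly6c1 they were Ccdc23, the interferon-inducible gene Ifitm2 and Cfl2, each at 0.88, with rho from 0.73 to 0.80 and r from 0.54 to 0.66 without 2 libraries. Libraries of all 3 treatments and both letters share these values, and anti-PD-1 replicate 5 is among the farthest for Ly6a and Ly6c1. Ly6a and Ly6e had r = 0.62 with one another (rho = 0.61; r = 0.46 without 2 libraries), and Ly6a and Ly6c1 had r = 0.43 (rho = 0.12; r = -0.01). With the mean of the 10 endothelial markers r was 0.11 for Ly6a (rho = 0.44; r = 0.73 without 2 libraries) and -0.15 for Ly6c1 (rho = -0.25; r = 0.02). With the mean of the 8 interferon-inducible genes tested r was 0.58 for Ly6a (rho = 0.47; r = 0.33 without 2 libraries), 0.31 for Ly6c1 (rho = 0.033; r = -0.14) and 0.32 for Ly6e (rho = 0.15; r = 0.16).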

How the data were processed

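Polyadenylated RNA was sequenced from the 3′ end in 25 samples. Per the submitters' processing notes, Bowtie2, HOMER and the build mm9 were used; their versions, the annotation, strand and duplicate handling were not given in the sources used here. The authors deposited whole-number counts per gene, not normalized, for each tissue, and a scaled signal table for each in which each library's values are whole multiples of a single factor: 100% came out as whole reads within 0.05. Counts were tested with edgeR 4.0.16 in R 4.3.3 (TMM, default expression filter by group, quasi-likelihood test, Benjamini-Hochberg adjustment over all tested genes, a gene called when adjusted p was under 0.05). In the choroid plexus the fit had the title letter as a covariate (14 libraries, 9513 genes, 10 residual degrees of freedom). The sorted fit had a mean for each of 4 groups (11 libraries, 9058 genes, 7 residual degrees of freedom). SE is the log2 fold change over the square root of F, and log2 CPM has a prior count of 2. Alternatives were DESeq2 1.42.0, RLE size factors, no filter, the recovered reads, other covariates and leaving out each library. DESeq2 was run on counts without the expression filter, so its tested genes differ from those of edgeR. The title letter comparison and the test of F minus M were added after the data were seen. Scripts were tested on simulated data.

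The members, family list and marker lists were chosen with earlier results of these data known. Text names the 6 members, family genes that passed the filter, the 3 genes most like each member and some genes of the marker lists. It also names lymphocyte and eosinophil genes picked after their values were seen. Promoters came from RefSeq (GRCm38.p6), where 2 of the 5 measured members matched; the files' build is mm9, so the promoter windows are the only coordinates given. Shared 50-base runs came from GENCODE M21 transcripts.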

Additional observations from a re-analysis of the deposited data

Results flagged for a closer look

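In the anti-PD-1 choroid plexus group, Ly6a of replicate 5 stood far from the others at 102 CPM, with the other 4 libraries at 24.4 to 41.9 CPM. In the untreated group, Ly6c2 of replicate 4 was at 1.78 CPM, from 2 counts, with the other 3 libraries at 4.83 to 5.05 CPM. Of 12 combinations of gene and choroid plexus group examined in this way 2 stood out, and chance alone flags about 1 in 20.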

How the results depend on the processing

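Of 515 single-gene values recomputed under an alternative, 465 were kept. For tested comparisons this meant the same direction and side of the threshold. For the comparison of the gates, which has no test, it meant the same direction and a fold change within the SE of the main one. Ly6a at D14 against D7 in the CD45-high gate kept its direction in all 16, and the number of members called there was 0 with RLE size factors and 0 to 1 when a library was left out. Without an expression filter 2 members were called between D14 and D7 in the CD45-low gate (Ly6c2 at 2.43e-10, Ly6c1 at 0.00783) and 1 in the test of the gates' difference; that fit had an infinite prior degree of freedom, against a median of 12.3 with the filter. For the title letter, 1 member was called with RLE size factors, 2 without a filter, 1 on the recovered reads and 0 to 1 when a library was left out.

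Signs that turned were all of members not called. For anti-PD-1 against IgG, Ly6a was -0.21 in M libraries, and Ly6c1 0.16 and Ly6e -0.075 in F libraries; leaving out libraries gave -0.25 to 0.33 for Ly6a, -0.54 to 0.13 for Ly6c1 and -0.033 to 0.15 for Ly6e. Against untreated, Ly6e was 0.090 with no covariate, and leaving out libraries gave -0.08 to 0.40 for Ly6a, -0.15 to 0.38 for Ly6c1 and -0.29 to 0.12 for Ly6e. For IgG against untreated, Ly6e was 0.062 with no covariate and 0.033 in F libraries, of which only 1 was untreated. Leaving out libraries there gave -0.15 to 0.23 for Ly6a and -0.32 to 0.053 for Ly6e. Leaving out libraries gave -2.68 to 0.15 for Ly6c2 between D14 and D7 in the CD45-low gate, -0.35 to 2.47 for Ly6c2 in the test of the gates' difference, and -0.21 to 0.18 for Ly6c1 by title letter. The causes were not tested.

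Titles of the sorted libraries share a first number between the gates and a last number between the gates and between D7 and D14. Deviations of same-numbered libraries from their group means had correlations of -0.04 to 0.16 in the choroid plexus and -0.01 to 0.10 in the sorted cells, so the numbers were not used as pairs; with so few libraries this does not show whether they share an origin. With the replicate block Ly6c1 was -0.0094 for anti-PD-1 against untreated, and in the CD45-high gate at D14 against D7 Ly6c1 was 0.16 and Ly6c2 0.20. It called 4 genes there, against 1 without it, and 15 against 9 in the CD45-low gate. In the choroid plexus it called 1, 0 and 2 in the comparisons of anti-PD-1 with IgG, of anti-PD-1 with untreated and of IgG with untreated. For the test of the gates' difference the block was instead the first number of the titles, and 1 gene was called.

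Over all genes, D14 against D7 in the CD45-high gate had 114 calls without a filter, 5 on the recovered reads, 26 with DESeq2 and 0 with RLE size factors, and in the CD45-low gate 128, 3, 18 and 9. Without a filter the choroid plexus comparisons had 31, 13 and 27 calls in the order above, the gates' difference 31 and the title letter 166. Leaving out libraries gave 0 to 13 calls in the CD45-high gate, 0 to 34 in the CD45-low gate, 0 to 2 for anti-PD-1 against IgG, 0 to 1 for IgG against untreated, 0 for anti-PD-1 against untreated and for the difference between the gates and 9 to 55 for the title letter, with 24 over all libraries. Depth limits Ly6i, Ly6c2 in the choroid plexus and Ly6c1 in the CD45-low gate, which had few or 0 counts.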
